A study of Mus musculus with 17 samples.

Results

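The genes described here are 10 genes of major histocompatibility complex (MHC) antigen presentation: B2m, H2-K1, H2-D1, Tap1, Tap2, Psmb8, Psmb9, Cd74, H2-Aa and H2-Ab1. They were taken from a fixed list of symbols, matched to Ensembl identifiers, and make up 10 of the 46073 genes in each file. All 10 were matched, and all 10 passed the filter on low values (at least 0.5 FPKM in at least 3 libraries), as did 19064 genes in all. FPKM is the number of fragments per kilobase of transcript, scaled to the mapped reads of the library. Setting levels of different genes side by side relies on the length by which each gene was divided, and that length is unknown here.

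Polyadenylated RNA was sequenced from frontal cortex, and all mice were FVB/N males. FVB/N is an inbred strain, and the labels give no age. The control group (Ct, 6 libraries fitted) carried the CamK transgene alone, a driver of a doxycycline-repressed transactivator that is restricted to forebrain excitatory neurons. The double transgenic group (dTg, 6 libraries fitted, replicates 2 to 7) carried the driver and a transgene that places the microRNA miR-211 under that transactivator. The third group (dTgDox, 3 libraries) had both transgenes and received doxycycline for 4 days, which represses the transactivator. All mice of the fitted groups carried the driver, and no control mouse was given doxycycline, so doxycycline itself and the repression of the transgene cannot be told apart. The labels do not say that libraries came from separate mice, so p-values measure the spread between these libraries.

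Class I molecules, made of a heavy chain such as H2-K1 or H2-D1 and the light chain B2m, present peptides from inside the cell to CD8 T cells. Proteasomes that carry the interferon-inducible subunits Psmb8 and Psmb9 cut proteins into such peptides, and the Tap1-Tap2 transporter carries them into the endoplasmic reticulum. Class II molecules, built from an alpha chain such as H2-Aa and a beta chain such as H2-Ab1 with the invariant chain Cd74 as chaperone, present endocytosed peptides to CD4 T cells. In the brain, class II transcripts come mainly from macrophages at the borders of the tissue and from activated microglia, while class I genes are transcribed by endothelium, glia and some neurons.

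Sequence bears on the study in a pair of ways, and is shown for these. The first is the seed of the transgene's microRNA (bases 2 to 8, in capitals), because a match to it in a 3′ untranslated region is what a direct target would carry. The mature sequence is that of RefSeq (GRCm38.p6), at chr7:64205831-64205852 on the plus strand.
miR-211-5p: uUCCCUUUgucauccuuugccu
A stretch of 7 bases complementary to this seed is AAAGGGA. Of 14374 tested genes with an annotated 3′ untranslated region, 7.54% held that match followed by an A. Of the 10 antigen presentation genes, 1 held it, and this was Cd74, with the match starting at base 206 of an untranslated region of 490 bases. The other 9, with untranslated regions of 188 to 687 bases, held no match to the last 6 bases of the 7, which 39.78% of the tested genes held. Longer regions hold more matches by chance, and these shares were not matched for length.

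The second is the upstream sequence that class I and class II genes have in common. RefSeq promoters (GRCm38.p6) were found for 7 of the 10 genes: B2m, H2-K1, H2-D1, Tap1, Psmb8, Psmb9 and H2-Aa. The pair TGACG and ATTGG, read on the strand of the gene with starts 24 to 27 bases apart, lay in the 250 bases before the start site of 4 of these 7, against 0.122% of 32851 mouse promoter windows. The stretches around the pair are printed 5′ to 3′ on the strand of the gene, with the pair in capitals, for 3 of the 4. They lie at chr2:122147589-122147646 (plus strand) for B2m, at chr17:34000351-34000408 (minus strand) for H2-K1 and at chr17:34287859-34287917 (minus strand) for H2-Aa.
B2m: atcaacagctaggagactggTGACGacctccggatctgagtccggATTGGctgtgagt
H2-K1: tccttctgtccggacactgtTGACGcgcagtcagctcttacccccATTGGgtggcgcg
H2-Aa: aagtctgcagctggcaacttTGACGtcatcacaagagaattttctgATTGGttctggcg
The starts of TGACG and ATTGG were 25 bases apart in B2m, in H2-K1 and in H2-D1, and 26 apart in H2-Aa. The letters TTCNNNGAA, searched on both strands, lay 97 bases before the start site of Psmb8 and were in 7.02% of all windows. All these start sites are those of RefSeq. In the GENCODE M21 annotation the Psmb8 window (chr17:34197945-34198194) lies inside the gene, after its annotated start. The stretch around the H2-D1 pair (chr17:35262973-35263030) likewise lies inside H2-D1 and overlaps an exon of it. A match describes the letters in the window and does not show binding.

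Relative depth, from the smallest values of low genes, ranged from 0.89 to 1.229 times that of dTg 4, and the FPKM values summed to between 595615 and 695518 per library. The file labelled as having the miR-211 transgene without the CamK driver held the same values as dTg 1, so 17 files hold 16 distinct libraries. The library labelled dTg 1 stood apart and is given separately: its excitatory cortical neuron markers summed to 258 FPKM against 1922 to 3158 in the other 15 libraries, and its cerebellar markers to 2612 FPKM against 17.8 to 47.7. In the 3 dTgDox libraries hippocampal neuron markers summed to 231 to 285 FPKM, against 34.9 to 62.6 in Ct and dTg. In every comparison with dTgDox, the tissue content of the libraries therefore cannot be told apart from doxycycline or repression of the transgene. The Mir211 gene was above 0 in dTg 2 (21.6 FPKM) and dTg 5 (24.9 FPKM) and at 0 in the other 14 libraries; libraries of polyadenylated RNA do not count the mature microRNA.

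None of the 10 antigen presentation genes was called in any of the 3 comparisons by limma at an adjusted p under 0.05. In dTg against Ct, 0 of 10 were called, as were 0% of the 19064 genes tested. In dTgDox against dTg, 0 of 10 were called, against 18.9% of all genes tested. In dTgDox against Ct, 0 of 10 were called, against 19.7%. Those last comparisons share the dTgDox libraries and are not independent of each other. At an unadjusted p under 0.05 there was 1 of 10 in dTg against Ct (Tap2; 3.18% of all genes), 2 of 10 in dTgDox against dTg (Cd74 and H2-D1; 32%) and 1 of 10 in dTgDox against Ct (H2-Aa; 32.6%). Groups did not overlap for 0, 1 and 0 of the 10 genes in the same order, against 0.131%, 22.2% and 23.4% of all genes, and the 1 gene was Cd74, lower in dTgDox than in dTg. The median difference of the 10 genes on the log2(FPKM + 0.5) scale was 0.17, -0.10 and 0.13, against -0.0045, -0.0054 and -0.0079 for all genes, with 6, 4 and 6 of the 10 above 0. Differences on this scale understate the change of genes with low values.

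**Figure D1:**
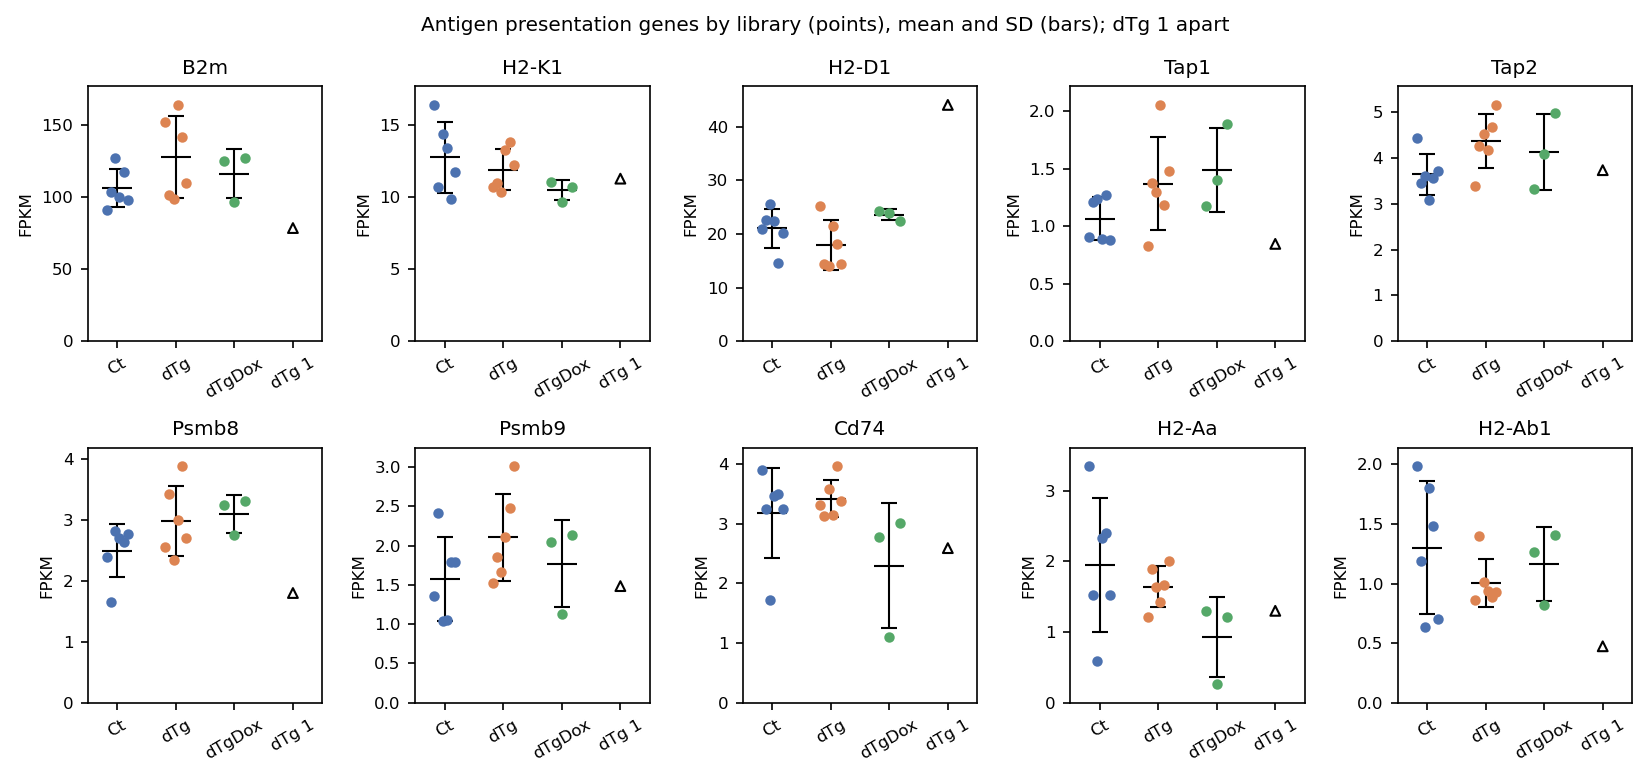
Level of each antigen presentation gene in FPKM (vertical axis, linear, from 0) in the 6 Ct, 6 dTg and 3 dTgDox libraries (points), with the group mean and SD (bars) and the library labelled dTg 1 apart (open triangle). The groups overlap for every gene and pair of groups except Cd74 in dTgDox and dTg; H2-D1 in dTg 1, at 44.1 FPKM, lies above all other libraries.

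By mean level over the 15 fitted libraries B2m came first at 117 FPKM, followed by H2-D1 at 20.3, H2-K1 at 12.0, Tap2 at 4.03 and Cd74 at 3.10. Psmb8 followed at 2.82, Psmb9 at 1.83, H2-Aa at 1.62, Tap1 at 1.27 and H2-Ab1 at 1.15. The order of the genes also depends on the unknown length by which each was divided. The ranges over libraries were apart between B2m and H2-D1 and between H2-K1 and Tap2, and overlapped between all other neighbours in this order. H2-D1 was nevertheless above H2-K1 in 15 of 15 libraries, and Tap2 above Cd74 in 14 of 15, whereas Tap1 was above H2-Ab1 in 9 of 15. The spread over libraries was widest for H2-Aa, with a highest level 12.3 times the lowest and a coefficient of variation of 45.6%. For Tap2 the highest level was 1.67 times the lowest, with a coefficient of variation of 15.9%.

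B2m, the light chain of all class I molecules (chr2:122147686-122153083, plus strand, GRCm38), had a lowest, median and highest level of 91.1, 102 and 127 FPKM in Ct. In dTg the corresponding levels were 99.0, 126 and 164 FPKM. In dTgDox they were 125, 97.0 and 128 FPKM in replicates 1, 2 and 3. The 3 highest libraries, dTg 5, dTg 2 and dTg 6, were above every Ct library, while the other 3 dTg libraries lay within the Ct range. The dTg mean was 128 ± 28.3 (SD, n = 6) against 106 ± 13.4 FPKM (SD, n = 6), a log2 difference of 0.25 (SE 0.13, 95% interval -0.04 to 0.53, limma adjusted p = 0.9999). The dTgDox group differed from dTg by -0.12 (SE 0.16) and from Ct by 0.13 (SE 0.16), with adjusted p of 0.67 and 0.64.

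H2-K1, a classical class I heavy chain (chr17:33996017-34000347, minus strand), had a lowest, median and highest level of 9.92, 12.6 and 16.4 FPKM in Ct. The dTg libraries ranged from 10.4 to 13.8 FPKM with a median of 11.6. The dTgDox libraries were at 11.1, 9.70 and 10.7 FPKM. All groups overlapped, with the lowest level in dTgDox 2 and the highest in Ct 1. The difference was -0.08 (SE 0.11) in dTg against Ct and -0.25 (SE 0.14, 95% interval -0.55 to 0.04, limma adjusted p = 0.22) in dTgDox against Ct.

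H2-D1, the other classical heavy chain on the list (chr17:35262730-35267499, plus strand), had a lowest, median and highest level of 14.6, 21.6 and 25.6 FPKM in Ct. In dTg the lowest was 14.05 FPKM, the median 16.3 and the highest 25.2 FPKM. The dTgDox libraries were at 24.4, 23.9 and 22.4 FPKM, so they were close together and above 5 of the 6 dTg libraries, with dTg 2 the exception. The difference of dTgDox from dTg was 0.42 (SE 0.18, 95% interval 0.03 to 0.81), and did not pass (limma adjusted p = 0.13). Without dTg 2 it was 0.52 with an adjusted p of 0.041, the single setting of 25 in which it passed. Against Ct the dTgDox difference was 0.18 (SE 0.18, adjusted p = 0.55), and dTg against Ct was -0.24 (SE 0.15, adjusted p = 0.9999).

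The heavy chains share part of their sequence with other genes. Of the stretches of 50 bases in annotated transcripts, 12.77% of those of H2-D1 and 9.63% of those of H2-K1 also occurred in transcripts of other genes, chiefly H2-Q1 for the first and H2-Q10 for the second. The share was of the same size for Psmb8 (11.86%, chiefly with Gm20496) and Tap2 (11.6%, chiefly with Gm15821). It was 4.19% for Psmb9, 3.33% for Tap1, 0.51% for H2-Aa and 0% for B2m, Cd74 and H2-Ab1. FVB/N carries the H-2q haplotype, whereas the reference genome is from C57BL/6, which carries H-2b. How reads that differ from the reference were treated is not given in the sources used here, so levels of the polymorphic genes H2-K1, H2-D1, H2-Aa and H2-Ab1 are uncertain, and the part of mapping in them was not tested.

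The ratio of H2-D1 to H2-K1 within a library was 2.20, 2.47 and 2.09 in dTgDox. It had a lowest, median and highest value of 1.27, 1.69 and 2.12 in Ct and of 1.18, 1.33 and 2.35 in dTg. The dTgDox values therefore overlapped both groups at their upper end only, with Ct 2 and dTg 2 reaching into their range. B2m relative to the sum of H2-K1 and H2-D1 ranged from 4.01 to 4.72 in dTg and from 2.88 to 3.85 in dTgDox, and these ranges did not overlap. The Ct range, 2.44 to 4.79, spanned both, with Ct 5 as its highest value and the other 5 Ct libraries at or below 3.17. The 13 ratios examined were read from the same values as the tests above and are given as a description, with no test. Their size depends on the unknown length by which each gene was divided. In dTgDox against dTg the groups did not overlap for 22.2% of all single genes, a share not computed for ratios.

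Tap1 and Tap2 lie on chromosome 17 beside the immunoproteasome genes. Tap1, the first chain of the peptide transporter (chr17:34187553-34197225, plus strand), had a lowest, median and highest level of 0.885, 1.06 and 1.28 FPKM in Ct and of 0.824, 1.34 and 2.06 FPKM in dTg. The dTgDox libraries were at 1.18, 1.41 and 1.89 FPKM. These overlapped with both groups, although 2 of the 3 dTgDox libraries were above every Ct library. The difference of dTgDox from Ct was 0.34 (SE 0.18, 95% interval -0.04 to 0.71, limma adjusted p = 0.20), and that of dTg from Ct 0.24 (SE 0.14, adjusted p = 0.9999).

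Tap2, the second chain (chr17:34203527-34216321, plus strand), had a lowest, median and highest level of 3.08, 3.59 and 4.44 FPKM in Ct and of 3.39, 4.40 and 5.16 FPKM in dTg. The dTgDox libraries were at 3.32, 4.09 and 4.98 FPKM. In dTg 3 of the 6 libraries exceeded the highest Ct library, Ct 1. The difference of dTg from Ct was 0.23 (SE 0.11, 95% interval 0.0024 to 0.46), with an unadjusted p of 0.048 and a limma adjusted p of 0.9999. It kept its sign in all 25 alternative settings, between 0.18 and 0.29, and passed in none.

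Psmb8, an inducible catalytic subunit that replaces Psmb5 (chr17:34197721-34201454, plus strand), had a lowest, median and highest level of 1.66, 2.67 and 2.82 FPKM in Ct. The dTg levels were 2.34, 2.86 and 3.88 FPKM, and the dTgDox libraries were at 3.25, 2.75 and 3.31 FPKM. Ct 2 lay well below the other Ct libraries, and 2 of the 3 dTgDox libraries were above all of Ct. The difference was 0.22 (SE 0.13) in dTg and 0.28 (SE 0.15) in dTgDox against Ct, with limma adjusted p of 0.9999 and 0.23.

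Psmb9, the inducible counterpart of Psmb6 (chr17:34181987-34187764, minus strand), had a lowest, median and highest level of 1.04, 1.57 and 2.42 FPKM in Ct. The dTg levels were 1.52, 1.98 and 3.01 FPKM, and the dTgDox libraries were at 2.05, 1.13 and 2.14 FPKM. The groups overlapped throughout, and dTg 6 and dTg 7 alone were above the highest Ct library. The difference of dTg from Ct was 0.34 (SE 0.19, 95% interval -0.05 to 0.74, limma adjusted p = 0.9999).

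These genes overlap their neighbours. Exons of Tap1 and Psmb9 share 212 bases on opposite strands, those of Tap2 share 698 bases with Gm15821 and Gm20496 on the opposite strand, and those of Psmb8 share 498 bases with Gm20496. Whether counting used strand is not given in the sources used here, so reads in these stretches cannot be assigned to 1 gene.

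In these FPKM values the inducible subunits Psmb8 and Psmb9 were low relative to the constitutive subunits that they replace. Annotated exons cover 3381 bases for Psmb8 and 3660 for Psmb9, and the length by which each gene was divided is unknown. The size of a ratio between genes rests on that length, so scarcity of the transcripts was not tested. A length that is the same in all libraries does not alter the comparison of groups. Psmb8 was 0.0136 to 0.0367 times Psmb5 over the 15 libraries, with medians of 0.0252 in Ct, 0.0296 in dTg and 0.0265 in dTgDox. Psmb9 was 0.00983 to 0.0330 times Psmb6, with medians of 0.0153, 0.0201 and 0.0174 in the same order. Psmb10, the third inducible subunit, which replaces Psmb7, was nearer to its partner, at 0.166 to 0.272 times Psmb7. The 3 groups overlapped in each of these ratios.

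**Figure D2:**
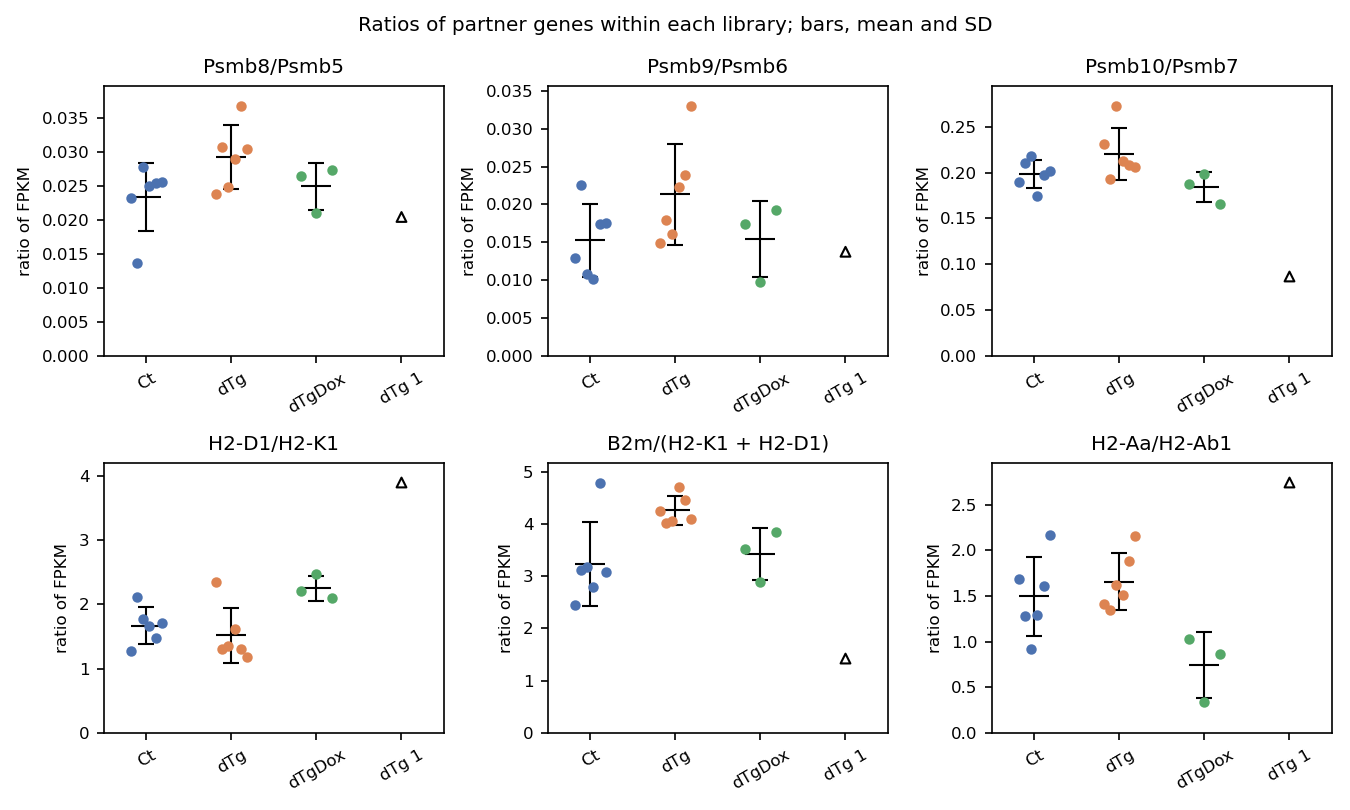
Ratio of the FPKM of partner genes within each library (vertical axes, linear, from 0) in the 6 Ct, 6 dTg and 3 dTgDox libraries (points), with the group mean and SD (bars) and dTg 1 apart (open triangle). The H2-Aa to H2-Ab1 ratio is 0.332 to 1.02 in dTgDox and 1.35 to 2.16 in dTg; the H2-D1 to H2-K1 ratio is 3.90 in dTg 1.

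Cd74, the invariant chain (chr18:60803848-60812652, plus strand), had a lowest, median and highest level of 1.73, 3.36 and 3.90 FPKM in Ct. The dTg libraries were close together at 3.13, 3.34 and 3.96 FPKM, and the dTgDox libraries were at 2.77, 1.09 and 3.01 FPKM. All 3 dTgDox libraries were below all 6 dTg libraries, dTgDox 3 by a small margin and dTgDox 2 by a wide one, and Ct 3 was low among the controls. The difference of dTgDox from dTg was -0.57 (SE 0.23, 95% interval -1.06 to -0.08) and did not pass (unadjusted p = 0.026, limma adjusted p = 0.10). Without dTgDox 2 it was -0.21 with an adjusted p of 0.53, and without Ct 3, which enters only through the shared estimate of the spread, it was -0.57 with an adjusted p of 0.049. The difference of dTg from Ct was 0.12 (SE 0.19, 95% interval -0.28 to 0.52), in the gene that holds the seed match. The driver is restricted to forebrain excitatory neurons, whereas class II transcripts come mainly from border macrophages and activated microglia. The bulk Cd74 level therefore cannot show whether the match acts, and this was not tested.

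H2-Aa, the class II alpha chain (chr17:34282744-34287823, minus strand), had a lowest, median and highest level of 0.589, 1.93 and 3.34 FPKM in Ct. The dTg levels ranged from 1.22 to 2.003 FPKM with a median of 1.66, and the dTgDox libraries were at 1.30, 0.271 and 1.22 FPKM. The groups overlapped, with dTgDox 2 and Ct 3 lowest of the 15 libraries and Ct 1 highest. The difference of dTgDox from Ct was -0.77 (SE 0.33, 95% interval -1.48 to -0.06, unadjusted p = 0.035, limma adjusted p = 0.12). Without dTgDox 2 it was -0.38 (adjusted p = 0.50), and without Ct 3 it was -0.98 (adjusted p = 0.023). Against dTg the difference was -0.67 (SE 0.33, adjusted p = 0.18), and -0.27 without dTgDox 2.

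H2-Ab1, the class II beta chain (chr17:34257689-34269419, plus strand), had a lowest, median and highest level of 0.638, 1.34 and 1.98 FPKM in Ct. In dTg these were 0.863, 0.932 and 1.40 FPKM, and the dTgDox libraries were at 1.27, 0.816 and 1.41 FPKM. All dTg and dTgDox libraries lay within the Ct range, and dTgDox 3 was level with the highest dTg library, dTg 3. The difference of dTgDox from dTg was 0.14 (SE 0.23, 95% interval -0.36 to 0.63, limma adjusted p = 0.74), of the opposite sign to those of Cd74 and H2-Aa.

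Ratios between the class II genes, which were at low levels, are given as a description with no test. In dTgDox against dTg the groups did not overlap for 22.2% of all single genes, and no such share was computed for ratios. The ratio of H2-Aa to H2-Ab1 was 1.02, 0.332 and 0.865 in dTgDox, and had a lowest, median and highest value of 1.35, 1.57 and 2.16 in dTg and of 0.924, 1.45 and 2.17 in Ct. The dTgDox values were below all 6 dTg values, and Ct 3 alone of the controls was below 1.02. Cd74 relative to H2-Ab1 was 2.18, 1.34 and 2.14 in dTgDox and from 2.23 to 4.48 in dTg, again without overlap, while the Ct range of 1.92 to 4.65 overlapped both. Within groups the 3 genes varied together. After subtraction of the group mean, Pearson's r over the 15 libraries was 0.887 for Cd74 and H2-Aa, 0.846 for H2-Aa and H2-Ab1 and 0.639 for Cd74 and H2-Ab1, the 3 highest of the 45 pairs of the 10 genes.

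**Figure D3:**
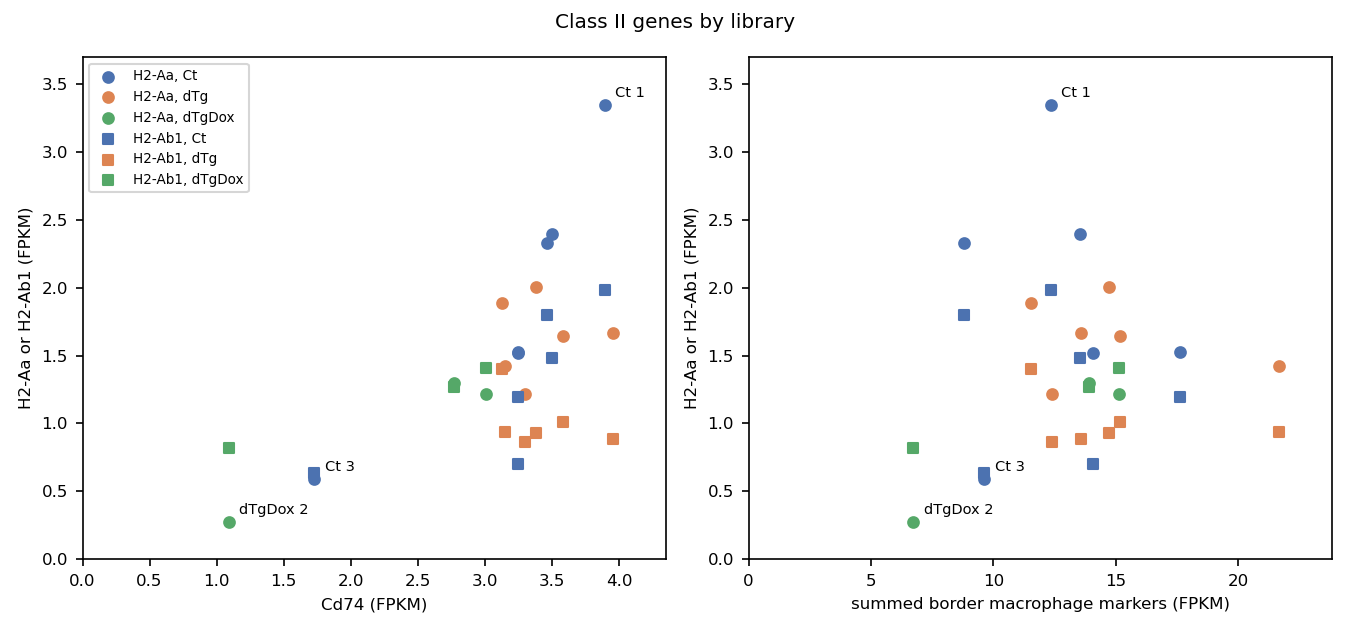
H2-Aa (circles) and H2-Ab1 (squares) in FPKM against Cd74 in FPKM (left) and against the summed FPKM of 8 border macrophage markers (right), 1 point per gene and library, coloured by group, all axes linear. The libraries dTgDox 2 and Ct 3 hold the lowest Cd74 and H2-Aa; on the right dTgDox 2 also has the lowest marker sum, 6.74 FPKM.

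Markers of the cells that carry class II molecules are given beside these levels. In bulk tissue, fewer cells of a type and less RNA per cell cannot be told apart. The 8 border macrophage markers, led by Stab1 and Pf4, summed to 8.80 to 17.6 FPKM in Ct, 11.5 to 21.7 in dTg and 6.74 to 15.1 in dTgDox, lowest in dTgDox 2, and 0 of 8 were called in any comparison. Ct 3 had the third lowest sum, 9.63 FPKM, after dTgDox 2 and Ct 4. As a share of that sum, H2-Aa ranged from 4.03% to 27.1% and Cd74 from 14.5% to 39.3% over the 15 libraries. Meningeal fibroblast markers summed to 85.2, 19.8 and 83.1 FPKM in dTgDox 1, 2 and 3. They ranged from 20.4 to 38.0 FPKM in Ct and from 17.3 to 35.55 in dTg. Choroid plexus markers summed to 24.25, 45.5 and 1986 FPKM in the same dTgDox libraries, and to at most 128.2 in Ct and dTg. The part of these tissues in the class II levels was not tested. The 14 microglial markers summed to 291 to 383 FPKM in Ct, 334 to 368 in dTg and 338 to 512 in dTgDox. Of these, 3 of 14 rose in dTgDox against dTg, Trem2 and Siglech among them, and 5 of 14 against Ct, among them Trem2, Siglech, Tyrobp and C1qa, where 18.9% and 19.7% of all genes were called. The B cell markers, mostly Ighm, summed to 12.9 to 33.7 FPKM in Ct, 13.1 to 24.8 in dTg and 8.92 to 10.4 in dTgDox, and Ighm fell in dTgDox against dTg (-0.93, limma adjusted p = 0.026); 4 of the 6 stayed below 0.5 FPKM in every fitted library. The dendritic cell markers summed to 5.33 to 6.91 FPKM in Ct, 5.001 to 7.43 in dTg and 4.95 to 5.30 in dTgDox. Zbtb46 alone of the 3 tested was called (-0.66, adjusted p = 0.0036), and Itgax, at or below 0.586 FPKM, was low throughout. Of the 7 dendritic cell markers, 3 stayed below 0.5 FPKM in every fitted library. Neither the sum nor Zbtb46 therefore shows the number of dendritic cells.

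The T and NK cell markers summed to 13.3 to 34.0 FPKM in Ct, 15.1 to 28.9 in dTg and 1.93 to 8.04 in dTgDox. Trbc2, a constant segment of the T cell receptor, fell in dTgDox against dTg (-2.33, limma adjusted p = 0.0010), and Cd4, at 0.0744 to 8.85 FPKM, differed by -1.85 (adjusted p = 0.20). The other 8 of the 10 markers, Cd3e, Cd3d, Cd3g and Cd8a among them, stayed below 0.5 FPKM in every fitted library. This sum therefore does not show the number of T cells. The dTgDox libraries were thus below all other fitted libraries in the summed B cell and T and NK cell markers, as well as below dTg in Cd74. Ct 3 had the highest of both sums, 33.7 and 34.0 FPKM, and the lowest Cd74 of the controls, 1.73 FPKM. The 10 endothelial markers, of a cell type that transcribes class I genes, summed to 146 to 174 FPKM in Ct. Their sums were 137 to 189.5 FPKM in dTg and 136 to 145 in dTgDox. In dTgDox against dTg, 1 of 10 was above 0 (median -0.25), and 0 were called, against 18.9% of all genes. The part of these cell types in the antigen presentation levels was not tested.

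**Figure D4:**
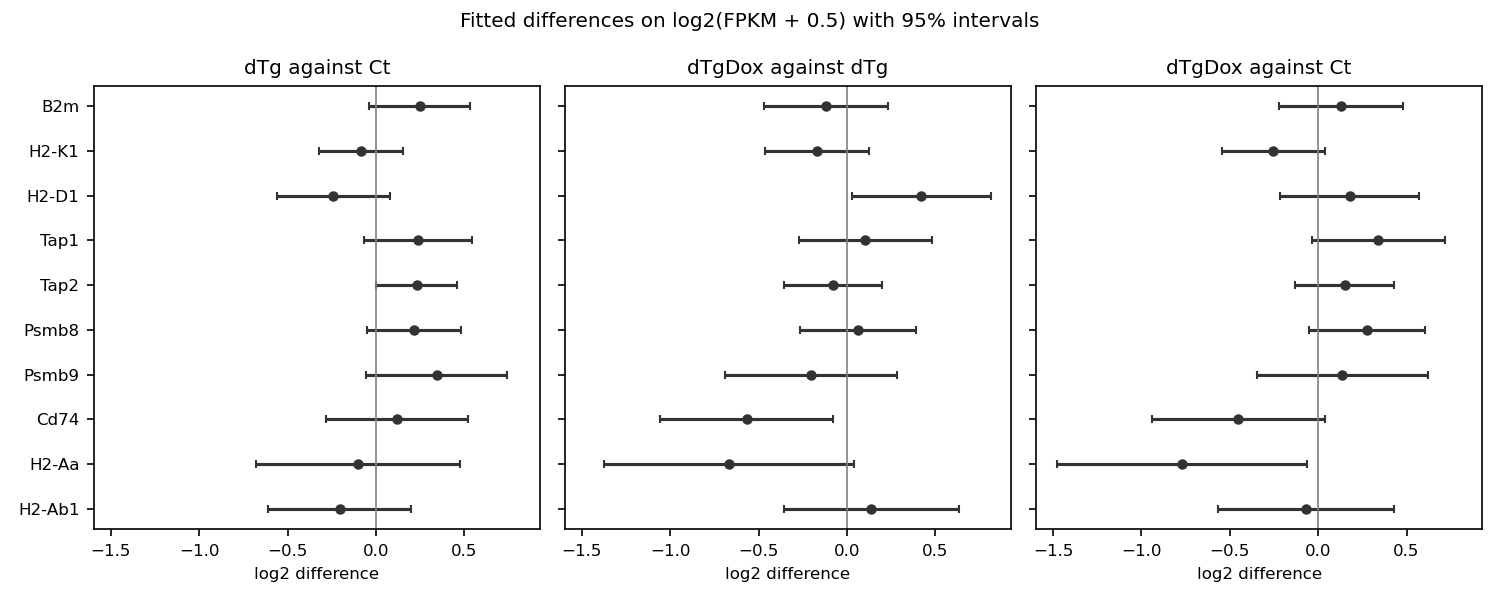
Fitted difference of each antigen presentation gene on the log2(FPKM + 0.5) scale (horizontal axis) in dTg against Ct, dTgDox against dTg and dTgDox against Ct; points are estimates and bars 95% intervals. Intervals exclude 0 for Tap2 in the first comparison, for H2-D1 and Cd74 in the second and for H2-Aa in the third; none passes after adjustment over 19064 genes.

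The intervals show how large a change these libraries would allow. In dTg against Ct the narrowest were those of Tap2 and H2-K1 (-0.32 to 0.15), and the widest that of H2-Aa, -0.68 to 0.48. In dTgDox against Ct the interval of B2m ran from -0.22 to 0.48 and that of H2-Aa from -1.48 to -0.06. The sign was kept in all 25 alternative settings by 8 of the 10 genes in dTg against Ct, by 6 in dTgDox against dTg and by 9 in dTgDox against Ct.

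The genes whose values most resembled each listed gene were named by a fixed rule, from the 3 highest Pearson correlations over 15 libraries of values minus the group mean, among 12202 or 12203 genes whose log2 level averaged 1 or more. B2m was most like Lgals3bp (0.922), Traf5 (0.892) and Nek6 (0.856). For H2-K1 these were Depdc5 (0.846) and Mbd5 (0.776), and for H2-D1 they were Ruvbl1 (0.86), Dbn1 and Pmepa1. Tap1 was most like Tubd1 (0.856), Epb41l4b and E2f3, and Tap2 like Cgnl1 (0.85), Malt1 and Hjurp. Psmb8 was most like Ddx58 (0.897), which encodes the RNA sensor RIG-I, followed by Cdk5rap2 and Bloc1s5. Psmb9 was most like Tapbpl (0.882), which encodes the peptide editor TAPBPR, followed by Zfp119a and Ccdc3. Cd74 was most like Gpx8 (0.9), Zbed5 and Bmp6, H2-Aa like Cd74 and Hmbox1 (0.887 each) and Camk2d, and H2-Ab1 like Dgkg (0.898), Tmem255a and Hmbox1. Of these partners Tapbpl and Ddx58 were on the pathway lists and Cd74 was among the 10 genes. The 2 genes of each pair come from the same libraries and so share their depth and dissection.

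Other genes of the pathway were followed in 6 lists. In dTg against Ct, 0 of the genes on each list were called by limma, as for all genes. The interferon-gamma list, with the receptor, its signalling genes and guanylate-binding proteins, had 18 of its 21 tested genes above 0 (median 0.13), and the type I interferon-induced list also 18 of 21 (median 0.16), against 48.04% of all genes. At an unadjusted p under 0.05 these lists had 0 and 2 genes. The dTg libraries were uneven: of the 21 type I genes, 14 in dTg 2, 17 in dTg 5 and 16 in dTg 6 were above the highest Ct library, but 3 in dTg 3, 3 in dTg 4 and 1 in dTg 7. The first 3 are also the libraries with the highest B2m, but other listed genes did not follow that order. Tap1 was highest in dTg 5 (2.06 FPKM) and lowest of the 15 fitted libraries in dTg 2 (0.824 FPKM). Tap2 and Psmb9 were at their lowest among the dTg libraries in dTg 2, at 3.39 and 1.52 FPKM. How these levels relate was not tested. Of the 21 interferon-gamma genes, 12 were above the highest Ct library in dTg 5 and from 1 to 6 in the other 5 dTg libraries. In dTgDox 1, 2 and 3 the counts were 2, 2 and 9 of the type I genes and 5, 1 and 11 of the interferon-gamma genes. These counts were made after the values were seen, and the share over all genes was not computed. In dTgDox against dTg, which shares the dTg libraries with the comparison above, the type I list had 2 of 21 above 0 (median -0.25) and the interferon-gamma list 7 of 21 (median -0.17), against 49.09% of all genes. In dTgDox against Ct these were 5 of 21 (median -0.13) and 12 of 21 (median 0.02), against 48.87%.

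In dTgDox against dTg, 1 of 21 tested interferon-gamma genes rose and 2 fell, a share below the 18.9% of all genes called. Ifngr2, a chain of the interferon-gamma receptor, was at 26.7, 28.3 and 29.9 FPKM in dTgDox, from 15.1 to 20.1 FPKM in dTg and from 15.4 to 20.9 FPKM in Ct. All 3 dTgDox libraries were above every other fitted library, with a difference of 0.67 from dTg (SE 0.10, limma adjusted p = 0.00041) and of 0.56 from Ct (adjusted p = 0.0016). Gbp3, an interferon-induced GTPase, was at 1.51, 1.97 and 1.66 FPKM in dTgDox, below every dTg library (2.54 to 4.34 FPKM), with a difference of -0.81 (SE 0.16, adjusted p = 0.0024). Gbp4, another such GTPase, fell by 0.87 on the log2 scale (SE 0.25, adjusted p = 0.022). Against Ct, Ifngr2 rose and Gbp3 fell (-0.54, adjusted p = 0.024).

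Of the type I interferon-induced list, 1 of 21 fell in dTgDox against dTg and 0 were called against Ct, below the 18.9% and 19.7% of all genes. Apobec3, which restricts retroviruses, was at 1.97, 1.36 and 2.01 FPKM in dTgDox and from 3.15 to 5.12 FPKM in dTg, a difference of -1.05 (SE 0.18, limma adjusted p = 0.0011). It ranged from 1.32 to 3.04 FPKM in Ct, below every dTg library, with a difference of 0.82 between dTg and Ct that did not pass (adjusted p = 0.57).

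Of 14 constitutive proteasome genes, 5 rose in dTgDox against dTg and 0 fell, against 18.9% of all genes called in either direction. Psmb7 was at 132, 132 and 135 FPKM in dTgDox and from 104 to 119 FPKM in dTg, a difference of 0.25 (SE 0.05, limma adjusted p = 0.0025). Psmb5 differed by 0.30 (adjusted p = 0.011), Psmb6 by 0.20 and Psmb1 by 0.18 (both adjusted p = 0.017), and Psma2 by 0.15 (adjusted p = 0.048). Against Ct, 4 of 14 rose: Psmb1, Psmb7, Psma4 and Psmb6, by 0.16 to 0.26. The inducible counterparts Psmb8, Psmb9 and Psmb10 differed from dTg by 0.06, -0.21 and -0.01, and none passed.

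Unlike the constitutive proteasome list, the remaining lists had called shares below 18.9% of all genes in dTgDox against dTg and 19.7% against Ct. Of the other class I molecules, 1 of 11 tested fell in dTgDox against dTg, the non-classical gene H2-T24 (-0.37, SE 0.12, limma adjusted p = 0.048). Against Ct, H2-T24 fell (-0.46, adjusted p = 0.017) and Hfe, the iron-regulating class I-like gene, rose (0.59, SE 0.18, adjusted p = 0.037). Of the peptide loading and trimming list, 1 of 10 fell in dTgDox against dTg, Tapbpl (-0.44, SE 0.13, adjusted p = 0.031), and 0 were called against Ct. Of the other class II pathway list, 0 of 14 were called in either comparison, with 0 and 4 at an unadjusted p under 0.05. The class II transactivator Ciita did not reach 0.5 FPKM in 3 libraries and was not tested. Of the 19 calls on these lists, 4 held in all 25 alternative settings: Psmb7, Ifngr2 and Apobec3 in dTgDox against dTg, and Ifngr2 against Ct. With 1 library left out at a time, Gbp3 in dTgDox against dTg and Psmb1 against Ct also held in 15 of 15 fits, and the other 13 calls held in 2 (H2-T24 against dTg) to 14 (Psmb5 against dTg) of 15.

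**Figure D5:**
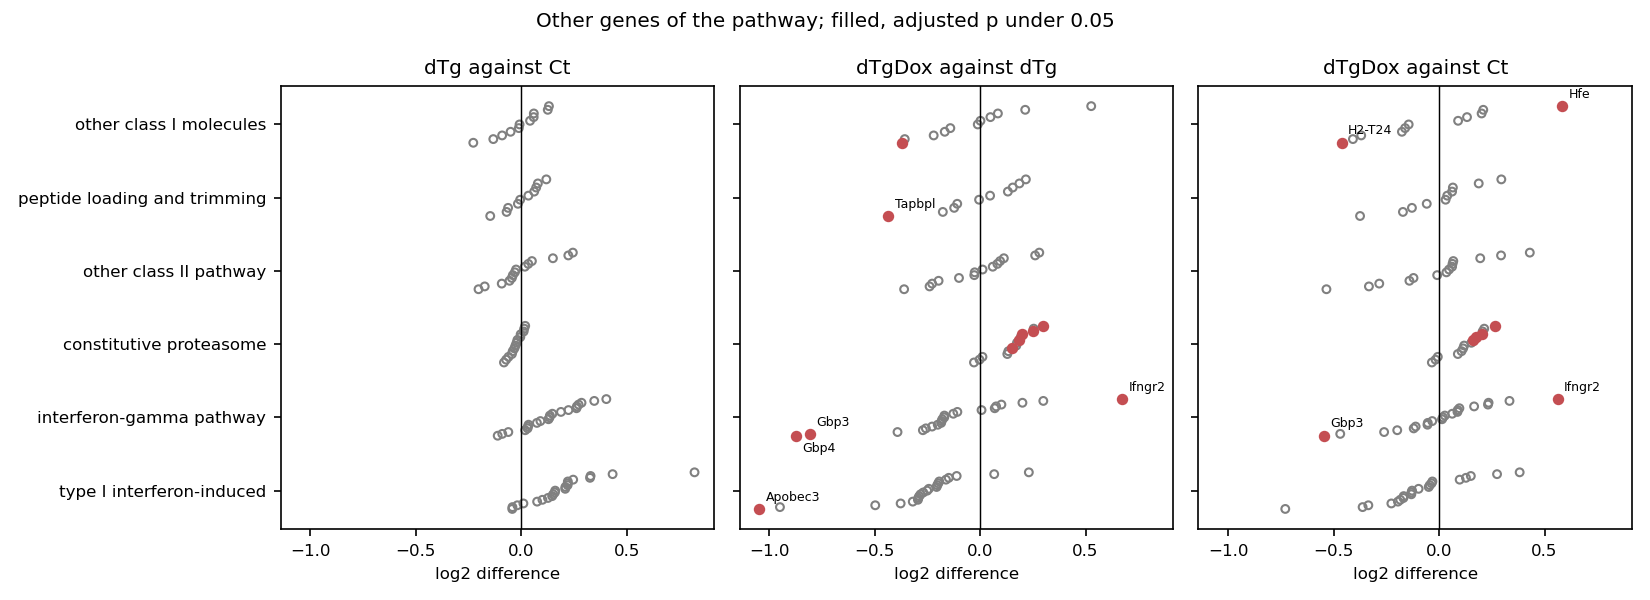
Fitted difference on the log2(FPKM + 0.5) scale (horizontal axis) of every tested gene on 6 pathway lists (rows) in the 3 comparisons; filled points passed an adjusted p under 0.05, and those beyond 0.4 are named. Filled points are absent in dTg against Ct; Ifngr2 is the highest call and Apobec3 the lowest in dTgDox against dTg.

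In the library labelled dTg 1, H2-D1 was at 44.1 FPKM and H2-K1 at 11.3 FPKM, a ratio of 3.90, where the other 15 libraries ranged from 1.18 to 2.47. B2m was at 78.7 FPKM there, below the other 15 libraries, and B2m relative to the sum of both heavy chains was 1.42, against 2.44 or more. H2-Ab1 was also below the other 15 libraries, at 0.474 FPKM. Psmb10 relative to Psmb7 was 0.0868, against 0.166 or more. Microglial markers summed to 96.0 FPKM in this library, against 291 to 512 FPKM in the others; their part in these levels was not tested.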

How the data were processed

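RNA sequencing values of 17 files were used as deposited. The submitters' processing notes list TopHat2 and DESeq without a role. For versions, quantifier, genome build and annotation, nothing is given in the sources used here. The deposited FPKM were identified as such from the values: they are not whole numbers, and the smallest values above 0 of 919 single-exon genes fell with gene length with a slope of -0.929 on log scales. Counts were not used here, so no counting intervals were computed. Symbols and positions came from GENCODE M21 (GRCm38), which matched 45139 of 46073 identifiers; promoters and microRNAs came from RefSeq tables.

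limma 3.58.1 (R 4.3.3) was fitted to log2(FPKM + 0.5) of 15 libraries, with 1 mean per group, all 3 groups sharing the estimate of the spread, and empirical Bayes moderation with a mean trend and robust to outlying genes. Genes needed at least 0.5 FPKM in at least 3 libraries. Two-sided p-values were adjusted across the 19064 genes (Benjamini-Hochberg, threshold 0.05). The fit was tested on simulated data. The library labelled dTg 1 was left out of the fit for the reasons given above. The 10 genes, the 6 pathway lists and the 18 marker lists were chosen with earlier results of these data known. From each pathway list at most 4 called genes per comparison are named, those with the smallest p-values; Psma2 was added after its value was seen. A few genes that these rules would name are not reported here. The 25 alternatives were other pseudocounts, filters and scalings, dTg 1 included, only the compared groups, array weights, a replicate block, and each library left out.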

Additional observations from a re-analysis of the deposited data

Results flagged for a closer look

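Among 20 sets of values (10 genes in the 6 Ct and the 6 dTg libraries), 3 held a library far from the others of its group by Dixon's test, where chance alone marks about 1 in 20. Psmb8 in Ct 2 was low at 1.66 FPKM, Cd74 in Ct 3 was low at 1.73 FPKM, and H2-Ab1 in dTg 3 was high at 1.40 FPKM. In the library labelled dTg 1, which entered no comparison, H2-D1 was at 44.1 FPKM, above the highest Ct library at 25.6 FPKM; it was the 1 gene of the 10 above all Ct libraries there.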

How the results depend on the processing

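Of the 10 antigen presentation genes, 0 were called in each comparison under every alternative that kept all libraries. Leaving out 1 library gave 0 to 1 called in dTgDox against dTg (Cd74 without Ct 3, H2-D1 without dTg 2) and 0 to 1 in dTgDox against Ct (H2-Aa without Ct 3). Over all genes, dTg against Ct gave 1 call with a pseudocount of 0.1 and 0 to 1 with a library left out. Calls ranged from 2077 to 3715 in dTgDox against dTg and from 2229 to 3872 against Ct with a library left out, the lowest without dTgDox 1 and the next lowest, 2155 and 2273, without dTgDox 3, and fell to 1537 and 1504 with dTg 1 included. Replicate numbers did not pair the libraries (correlations of same-numbered libraries -0.188 to 0.08); with the replicate as a block, 1562 and 2394 genes were called and 0 of the 10. Of the 19 calls on the pathway lists, 6 held with each library left out in turn. The cause of these changes was not tested. Genes near 1 FPKM rest on few reads, and with 3 dTgDox libraries the intervals of the class II genes stay wide.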
